A study of Xenopus tropicalis with 132 samples.

Results

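The gene eomes was followed through 2 RNA measurements of Xenopus tropicalis gastrulae, in animal caps sequenced in bulk and in single cells of 2 kinds of explant. It was found by its symbol in both sets of tables and is 1 of the 26550 targets in the cap tables, where its target is 2837 bases long. The caps were 16 libraries of stage 10.5 in 8 groups of 2. In 7 of the groups the caps had received mRNA of Foxb1, Irx3, Otx2, Lhx8, Irx3+Otx2, Eomes or Foxb1+Eomes. The remaining group is labelled WI, which the labels do not spell out and for which they name no mRNA. The 4 libraries of the Eomes and Foxb1+Eomes groups hold injected eomes mRNA and are kept apart from the 12 others. The single cells came from explants of the same stage, 25 cells in each of 4 libraries labelled AC 1, AC 2, BL 1 and BL 2. The study's design text names animal cap and dorsal marginal zone explants for these cells, and the labels do not spell out BL. Neither the amount of mRNA injected nor its species or untranslated sequence is given in the labels, so that in injected caps reads of injected and embryonic eomes cannot be told apart.

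Eomesodermin, also called Tbr2, is a transcription factor of the T-box family, which binds DNA through the domain first described in Brachyury. In Xenopus it is switched on at the start of gastrulation in the marginal zone, the belt of cells that will form mesoderm, and it is a textbook target of Nodal signalling. Nodal ligands bind activin receptors with a co-receptor of the Cripto family, and the signal reaches the nucleus through Smad2 and its partners. Injected eomes mRNA is known to turn on mesodermal genes in animal caps. The animal cap is the roof of the blastula, which left alone forms epidermis.

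The cap libraries held between 3234618 and 9218401 estimated counts. Levels are given as counts per 1000000 (CPM), scaled by edgeR's trimmed mean of M-values. Each of the injected genes was highest in the caps that had received it. Its lowest injected library exceeded the highest of all other libraries by 7.67-fold for foxb1, 18.2-fold for irx3, 9.02-fold for otx2, 174-fold for lhx8 and 11.004-fold for eomes. The labels do not say whether replicates came from separate clutches, and p-values therefore measure only the spread between these libraries, which may be technical. The running numbers in the deposited files fall into 3 runs. Both Otx2 libraries, both Eomes libraries and Irx3+Otx2 2 belong to the third, which holds no WI library. These 5 libraries were the highest on the first principal component of the 500 most variable genes, which held 36.8% of the variance. They stood at 21.96 to 29.68 against −32.75 to 18.57 for the other 11. The nearest of those were Foxb1+Eomes 1 at 18.57 and Irx3+Otx2 1 at 14.83, both of the first run, followed by Foxb1 1 at −2.36. Foxb1+Eomes 2 stood at −16.29. On this component run and mRNA cannot be told apart. Of 15 ectoderm markers 14 were listed, and all 14 had counts in each cap library. The same held for the 11 listed neural markers, so the presence of counts does not by itself mark the tissue.

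The embryo's own eomes was scarce in caps. In WI it was measured at 6.69 CPM in replicate 1 and 8.47 CPM in replicate 2, from 24 and 41 estimated counts. With exact 95% Poisson intervals these are 4.29 to 9.95 CPM and 6.08 to 11.5 CPM, which cover counting error only, since reads without molecular identifiers are not independent molecules. The 2 WI libraries lay within each other's intervals. Per length, in transcripts per 1000000 (TPM), eomes stood at 1.83 and 2.60 TPM there. At that level it was above 32.6% and 39.5% of the targets with a TPM above 0.

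Across the 12 libraries without Eomes mRNA the level ran from 1.37 CPM in Irx3 1 to 40.5 CPM in Otx2 1, with a median of 7.99 CPM and a 29.7-fold range. Foxb1 caps held 5.93 and 7.51 CPM, which overlapped WI, as did most genes, since 7.96% had both Foxb1 libraries above both of WI and 7.48% both below. The log2 change was −0.17 (SE 0.75), with an adjusted p of 1 and 0% of genes called by edgeR. Lhx8 caps held 10.7 and 10.9 CPM, the closest pair of replicates in the set and both above both WI libraries. Such an arrangement was found for 12.7% of the 14176 genes tested. The log2 change was 0.51 (SE 0.73, edgeR adjusted p = 1), and 0.00705% of genes were called, all of them higher in Lhx8.

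Irx3 caps had the least eomes. Their 2 libraries held 1.37 and 2.12 CPM, from 10 and 12 estimated counts, and both lay below every other cap library. Both were below both WI libraries, as were 8.72% of all genes tested in that comparison. The level was 1.74 ± 0.533 CPM (SD, n = 2) against 7.58 ± 1.26 CPM in WI. The change was −2.13 on the log2 scale (SE 0.81), with an unadjusted p of 0.0216 and an adjusted p of 1 in edgeR's quasi-likelihood test with Benjamini-Hochberg adjustment over all genes tested. It did not pass the threshold of 0.05, at which 0% of genes were called in Irx3 against WI, while 196 had an unadjusted p under 0.05. Each Irx3 library could be set beside the WI library of its own run of file numbers, and the ratios were 0.204 and 0.250. The 2 Irx3 libraries differed far more in irx3 itself, at 1862 and 199.9 CPM, than in eomes.

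Otx2 caps had the most eomes among caps that received none. The libraries held 40.5 and 13.9996 CPM, both above both WI libraries, an arrangement shared by 28.5% of the genes tested in that comparison. The mean was 27.3 ± 18.8 CPM (SD, n = 2). The log2 change from WI was 1.83 (SE 0.72, edgeR adjusted p = 0.244), and without Otx2 1 it was 0.88. Otx2 itself stood at 606 CPM in replicate 1 and 419 CPM in replicate 2.

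In Irx3+Otx2 caps the 2 replicates went separate ways. Replicate 1 held 6.71 CPM of eomes, beside 6.69 CPM in WI 1 of its own run, while replicate 2 held 35.3 CPM and lay near Otx2 1. The log2 change from WI was 1.46 (SE 0.72, edgeR adjusted p = 0.417), at a background of 0.127% of genes called, of which 0.0847% were higher. Without replicate 2 it was −0.18, and without replicate 1 it was 2.21. The injected genes were high in both replicates, with irx3 at 1618 and 1363 CPM and otx2 at 829 and 1548 CPM.

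The 3 libraries without Eomes mRNA in the third run of file numbers were the 3 highest of the 12, at 13.9996 to 40.5 CPM, against 1.37 to 10.9 CPM in the other 9. Since no WI library is in that run, a change of eomes with Otx2 and a difference between runs cannot be told apart. With the run as a term in the model the changes from WI were −0.57 for Otx2 and −0.19 for Irx3+Otx2. Only Irx3+Otx2 has libraries both inside and outside the third run. The term for that run therefore rests on Irx3+Otx2 1 against Irx3+Otx2 2 alone. With a single library on each side, it cannot separate a difference between runs from one between these libraries. Marker levels were set beside eomes in the same libraries. The summed ectoderm markers stood at 4352 and 2822 CPM in Otx2 and at 2973 CPM in Irx3+Otx2 2. They stood at 4181 CPM in Irx3+Otx2 1, where eomes was at the WI level, against 8036 to 11628 CPM in WI and 6355 to 11593 CPM in Irx3. The summed organizer markers, without otx2 itself, stood at 170 and 136 CPM in Otx2 and at 151 and 225 CPM in Irx3+Otx2, against 36.5 and 49.98 CPM in WI. Lhx8 caps, with eomes at 10.7 and 10.9 CPM, held 139 and 166 CPM of them. Low ectoderm and high organizer sums were thus found also in Irx3+Otx2 1, outside the third run, and their part in the eomes level was not tested. In bulk caps, fewer cells with eomes and less eomes per cell cannot be told apart.

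**Figure D1:**
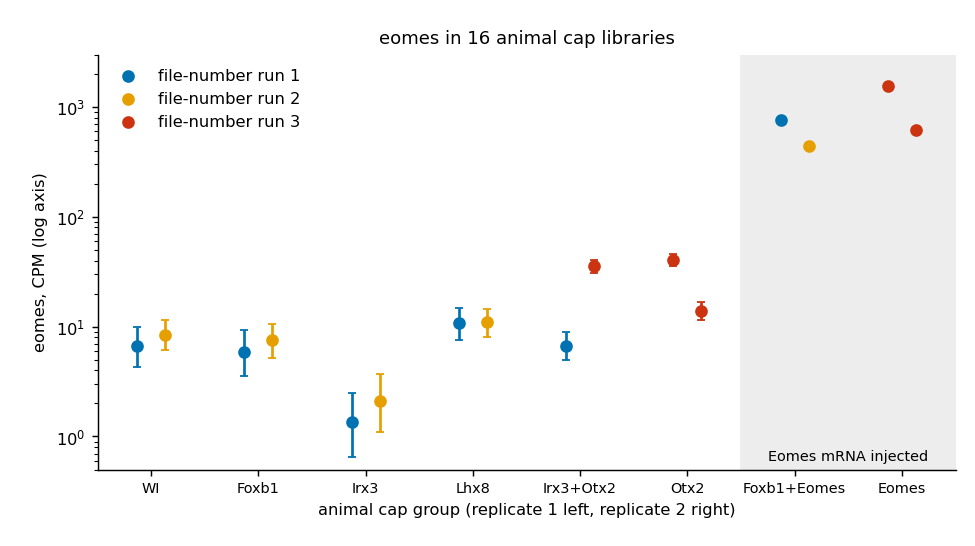
Level of eomes in CPM (vertical log axis) in each of the 16 cap libraries, by group, with exact 95% Poisson intervals as bars and colour for the run of file numbers. Irx3 caps lie lowest at 1.37 and 2.12 CPM, the 3 red points outside the shaded area are the highest of the 12 libraries without Eomes mRNA, and the 4 injected libraries lie at 446 CPM or above.

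Ordered by mean level, the groups ran from Irx3 (1.74 CPM) through Foxb1 (6.72 CPM), WI (7.58 CPM), Lhx8 (10.8 CPM), Irx3+Otx2 (21.02 CPM) and Otx2 (27.3 CPM) to Foxb1+Eomes (608 CPM) and Eomes (1089 CPM). Of the 7 steps between neighbours in this order, only that from Otx2 to Foxb1+Eomes passed edgeR's test, with a log2 difference of 4.48 (SE 0.77, adjusted p = 0.0349). Foxb1 and Irx3 did not overlap but missed the threshold, with a log2 difference of 1.96 and an adjusted p of 1. Among the 15 pairs of the 6 groups without Eomes mRNA, 0 passed for eomes. The genes called made up 0% in 7 of these pairs and 0.00705% in the 4 pairs of Lhx8 with Foxb1, Irx3, Otx2 and WI. Irx3+Otx2 had 0.0988% called against Foxb1, 0.0494% against Irx3, 0.0423% against Lhx8 and 0.127% against WI. Unadjusted, 8 of the 15 had p under 0.05. The lowest adjusted value was 0.114 (edgeR), for Irx3 against Otx2, whose log2 difference was −3.96 (SE 0.81). DESeq2, run for the 5 comparisons with WI, called 0 of them, with a smallest adjusted p of 0.103, while it did call eomes in the test over all 6 groups.

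One test over all 6 groups asked whether eomes varied at all among caps that received none. The F statistic was 6.58 with an unadjusted p of 0.00445 and an adjusted p of 0.143 (edgeR), at a background of 0.174% of genes called. The call depended on the tool and the filter, since the adjusted p was 0.000698 with DESeq2's likelihood ratio test and 8.85e-10 with edgeR and no filter on low counts. Without Irx3+Otx2 1 the adjusted p was 0.0467. Leaving out the 3 libraries of the third run was a choice made after seeing the data. It removed the Otx2 group and left 1 Irx3+Otx2 library. The F was then 7.14, and eomes was not called.

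The injected caps formed a level of their own. Eomes 1 held 1566 CPM and Eomes 2 held 612 CPM, a 2.56-fold difference between replicates, from 8582 and 5199 estimated counts. Foxb1+Eomes held 769 and 446 CPM, a 1.73-fold difference. The 4 libraries did not overlap the 12 others, and the lowest of them lay 11.004-fold above the highest of those. In Eomes 1 eomes was the 157th most abundant of the targets by TPM.

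Against WI, eomes rose by 7.16 on the log2 scale in Eomes caps (SE 0.88, edgeR adjusted p = 0.0123), where 0.198% of genes were called in either direction and 0.155% were higher. In Foxb1+Eomes caps it rose by 6.32 (SE 0.85, adjusted p = 0.00673), at a background of 0.346%. Both calls rest on both WI libraries. Without WI 1 the adjusted p was 0.213 in Eomes and 0.223 in Foxb1+Eomes, and without WI 2 it was 0.120 and 0.194, while the log2 changes stayed between 6.16 and 7.35. Within the runs of file numbers, Foxb1+Eomes lay 115-fold above WI 1 and 52.7-fold above WI 2. The Eomes libraries have no WI library in their run, where the lower of them lay 15.1-fold above the highest library without Eomes mRNA. With the run as a term, the change was 4.76 in Eomes (adjusted p = 0.992) and 6.31 in Foxb1+Eomes (adjusted p = 0.00392, edgeR). The value for Eomes rests on the difference between Irx3+Otx2 1 and Irx3+Otx2 2, the only group split between the third run and another.

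All 12 pairs of an injected and a non-injected group passed edgeR's test for eomes, with a largest adjusted p of 0.0434, for Eomes against Otx2. The reads counted include the injected mRNA, so these passes and the changes from WI say nothing about the embryo's own eomes. For Eomes the genes called were 0.198% against WI, 0.0564% against Foxb1, 0.374% against Irx3, 0.275% against Irx3+Otx2, 0.176% against Lhx8 and 0.0494% against Otx2. For Foxb1+Eomes they were 0.346% against WI, 0.0705% against Foxb1, 0.346% against Irx3, 0.614% against Irx3+Otx2, 0.134% against Lhx8 and 0.289% against Otx2.

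The libraries of the 2 injected groups overlapped, and their difference missed the threshold. The log2 difference of Foxb1+Eomes against Eomes was −0.84 (SE 0.67, edgeR adjusted p = 0.564), and 0.0423% of genes were called. With the run as a term it changed sign, to 1.55 with an adjusted p of 1. The term for the run of the Eomes libraries rests on Irx3+Otx2 1 against Irx3+Otx2 2 alone.

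The level of eomes was next set beside the other T-box genes, per length, because these share its DNA-binding domain. Of 18 T-box genes in the list, 15 were present in the tables and 9 passed the filter on low counts. The other 6 did not exceed 3.57 TPM in any library. In WI, eomes stood at 2.22 ± 0.549 TPM (SD, n = 2) and 6 other genes of the family had a higher mean. They included vegt, whose maternal RNA is needed for endoderm, at 11.1 ± 2.90 TPM, mga, a partner of Max, at 9.29 ± 0.198 TPM, and t, the Brachyury gene of early mesoderm, at 4.07 ± 2.48 TPM. The other 3 were tbx2 and tbx3, at 6.88 ± 3.09 and 3.99 ± 2.44 TPM, and tbx1 at 2.73 ± 1.45 TPM.

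Among the 12 libraries without Eomes mRNA, vegt and mga were above eomes in all 12 and t in 7 of 12. The gene vegt had its highest value, 113 TPM, in Irx3+Otx2 2, where eomes reached 20.1 TPM. In that library t stood at 2.01 TPM. Lhx8 caps showed the reverse for t and eomes, with t at 25.3 and 24.4 TPM beside eomes at 2.91 and 3.41 TPM. There vegt stood at 45.3 and 55.6 TPM. In Eomes caps eomes, at 727 and 342 TPM, was above vegt at 76.8 and 97.8 TPM and t at 29.3 and 131 TPM. In Foxb1+Eomes caps eomes (215 and 169 TPM), vegt (134 and 170 TPM) and t (264 and 137 TPM) overlapped. Of the 8 tested family members other than eomes, vegt alone was called in any comparison of a cap group with WI. The call was in Foxb1+Eomes, with a log2 change of 3.61 (SE 0.63, edgeR adjusted p = 0.0266), where 0.346% of all genes were called. There t missed the threshold, with a log2 change of 5.52 (SE 1.06, edgeR adjusted p = 0.0606).

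**Figure D2:**
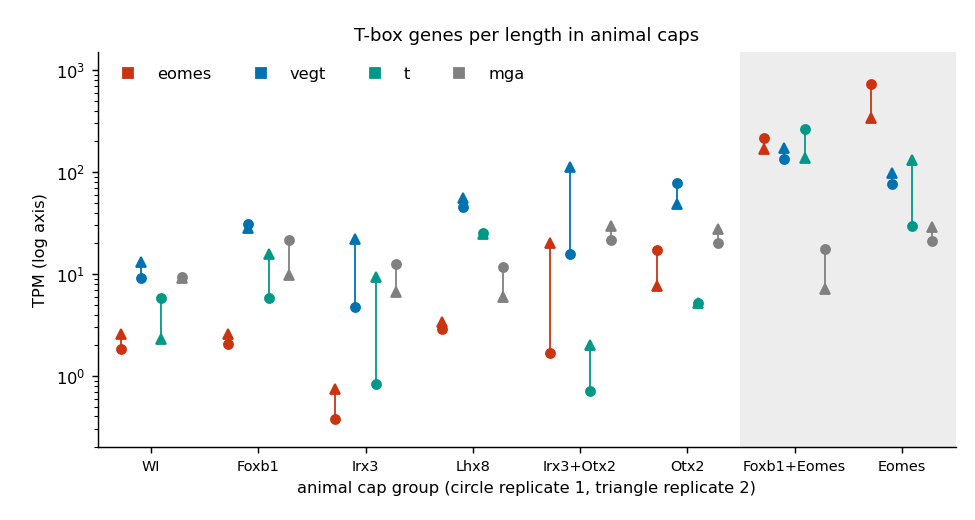
TPM (vertical log axis) of eomes and of the T-box genes vegt, t and mga in each cap group, with circles for replicate 1, triangles for replicate 2 and a line joining the 2 replicates; shading marks the caps with Eomes mRNA. In the libraries outside the shading vegt lies above eomes throughout, and inside it eomes rises to 169 TPM or more.

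The genes of the Nodal pathway and the mesendoderm, 79 with the other T-box genes, were counted beside eomes in the injected caps. Of these 68 were listed and 55 tested. In Eomes caps 4 rose and 0 fell, where 22 of all genes rose and 6 fell. In Foxb1+Eomes caps 12 rose and 0 fell, where 49 of all genes rose and 0 fell. The median log2 change over the 55 was 1.41 and 2.17, against 0.01 and 0.04 over all genes tested. With genes at 0 in 1 group set to their bound of 3 counts over the group, the medians were 1.34 and 2.17. The ectoderm markers lay the other way. In Eomes caps all 14 had a log2 change below 0, with a median of −2.51, and 1 of them, foxi4.2, fell past the threshold (11 had an unadjusted p under 0.05). In Foxb1+Eomes caps 13 of 14 were below 0, with a median of −1.21. By edgeR 0 were called there (2 had an unadjusted p under 0.05). Of all 14176 genes tested, 2647 were under 0.05 unadjusted in Eomes and 652 in Foxb1+Eomes. In caps without Eomes mRNA, 0 of the 14 were above 0 in Otx2 (median −2.11) and in Irx3+Otx2 (median −2.44, 1 called lower). Both Eomes and both Otx2 libraries lie in the third run, which holds no WI library, so mRNA and run cannot be told apart. The summed ectoderm markers stood at 4159 and 2569 CPM in Eomes and 4217 and 7141 CPM in Foxb1+Eomes, below both WI libraries. Their part in the list's changes was not tested.

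By role, none of the 7 tested ligands, 11 receptors and transducers or the 1 tested antagonist was called by edgeR in either comparison. At an unadjusted p under 0.05 there were 2, 3 and 1 of them in Eomes and 4, 4 and 1 in Foxb1+Eomes. Of all 14176 genes tested, 2647 were under 0.05 by edgeR in Eomes and 652 in Foxb1+Eomes. The ligand gene gdf3 came closest in Eomes caps, at 49.5 and 96.3 CPM against 2.51 and 5.99 CPM in WI (log2 change 4.07, edgeR adjusted p = 0.0506). Its Foxb1+Eomes libraries held 6.44 and 13.5 CPM. The gene of the Nodal inhibitor Lefty, lefty, was at 4.02 and 9.30 CPM in Eomes and at 10.7 and 10.9 CPM in Foxb1+Eomes, against 1.67 and 1.03 CPM in WI. The co-receptor gene tdgf1.3 and the Smad partner foxh1 stood at 181 and 194 CPM and at 218 and 249 CPM in WI. In Foxb1+Eomes they stood at 73.2 and 136 CPM and at 89.9 and 109.6 CPM, with log2 changes of −0.84 and −1.23 that missed the threshold (edgeR adjusted p = 1 and 0.576). Of the 11 receptor and transducer genes 10 had a log2 change below 0 there, with a median of −0.63. In Eomes 7 were above 0, with a median of 0.20. In Otx2, in the same run as Eomes and without Eomes mRNA, 8 were above 0, with a median of 0.22. Of all genes tested, 53.2% were above 0 in Foxb1+Eomes and 50.5% in Eomes. The Eomes libraries lie in the third run, and those of WI and Foxb1+Eomes in the others. For Eomes, beside WI or beside Foxb1+Eomes, mRNA and run can therefore not be told apart. Each Foxb1+Eomes library has a WI library in its own run.

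All 4 calls in Eomes and 11 of the 12 in Foxb1+Eomes were among the 28 mesendoderm genes tested, and the other was vegt. Endoderm factors were called in both. The Mix family homeobox gene mixer rose from WI libraries at 1.39 and 0.6196 CPM to Eomes libraries at 9.31 and 35.4 CPM (log2 change 4.50, edgeR adjusted p = 0.0190) and Foxb1+Eomes libraries at 74.9 and 55.5 CPM (6.04, 0.00249). Its relative mix1 rose by 4.12 and 4.99 (adjusted p 0.0319 and 0.00926), and sox17a, a Sox factor of endoderm, by 3.23 and 5.03 (0.0334 and 0.00249). The forkhead gene foxa4 of the organizer and axial midline rose by 5.40 and 7.73 (0.0395 and 0.00529).

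Called in Foxb1+Eomes and not in Eomes were 8 genes. They were vegt, the muscle regulator myf5, snai1, fgf8, foxa1, sox17b.2, and chrd and frzb, which encode secreted antagonists of BMP and Wnt. The sox17b copies are near-identical neighbours, between which counts can be split. Of these, chrd was also called in Foxb1+Eomes against Eomes directly, with 47.0 and 71.5 CPM against 5.84 and 7.18 CPM. It was the only one of the 55 that was, where 6 of all 14176 genes tested, 0.0423%, were called. The Eomes libraries lie in the third run and those of Foxb1+Eomes in the others. Between these groups mRNA and run can therefore not be told apart. For myf5 and frzb the WI libraries held 2 counts in all. Their ratios to WI in Foxb1+Eomes were 403 and 210.3, with exact 95% intervals of 111 to 3335 and 57.9 to 1741. These intervals cover counting error only and not the spread between libraries. Without Foxb1+Eomes 1 the log2 change was 7.18 for myf5 and 8.10 for frzb. Without Foxb1+Eomes 2 it was 9.49 and 5.59. Summed over the 11 listed mesoderm markers, the level was 145 to 154 CPM in WI, 359 to 635 CPM in Eomes and 1181 to 2214 CPM in Foxb1+Eomes. With the run as a term the list had 0 calls in Eomes, where 0 of all genes were called, and 13 in Foxb1+Eomes, where 57 were. For Eomes that term rests on the difference between Irx3+Otx2 1 and Irx3+Otx2 2 alone. Without WI 1 or without WI 2 the list lost its calls in both comparisons, as did nearly all other genes. The loss is therefore not particular to the list. Leaving out 1 injected library also left fewer calls, in the list and over all genes.

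**Figure D3:**
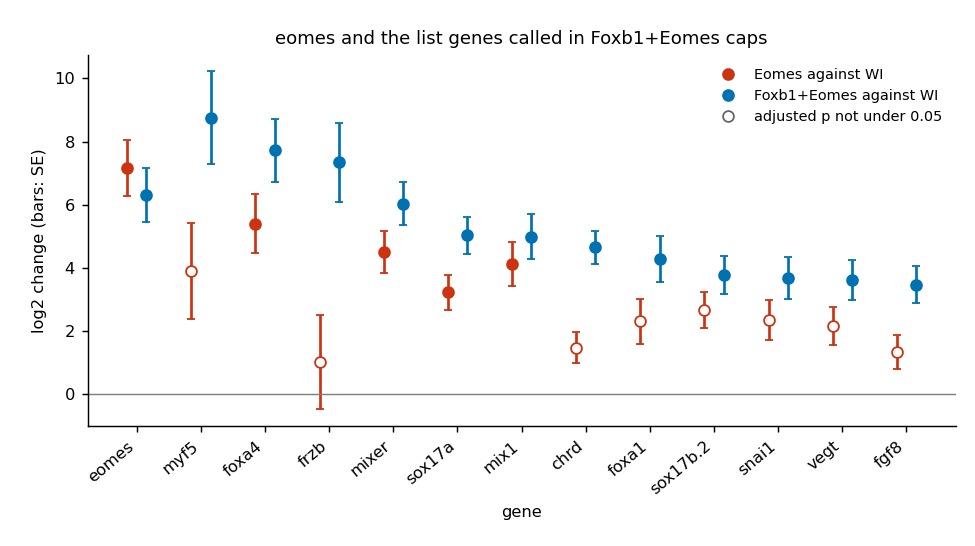
Log2 change against WI, with SE bars, of eomes and of the 12 list genes called in Foxb1+Eomes caps, in Eomes (red) and Foxb1+Eomes (blue); open symbols missed the threshold of 0.05. In Eomes caps 4 of the 12 are filled, and the change of eomes itself is 7.16 against 6.32.

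The library with more eomes did not hold more of these genes in the Eomes group. Eomes 1 had 2.56 times the eomes of Eomes 2, and 32 of the 55 tested list genes, 58.2%, were higher in Eomes 2, as were 49.5% of all genes tested. For foxa4 the values were 20.8 CPM in Eomes 1 and 85.5 CPM in Eomes 2. In Foxb1+Eomes the library with 1.73 times the eomes had lower levels for 24 of 55 list genes, 43.6%, against 51.6% of all genes. These are single libraries, and no test was made.

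In the explants, eomes was higher in both BL libraries than in both AC libraries. Summed over the 25 cells of a library, it stood at 3.30 CPM in AC 1 and 6.34 CPM in AC 2, and at 123 CPM in BL 1 and 116 CPM in BL 2. The reads behind these were 11, 7, 283 and 75. The BL libraries differed from each other by less than their counting intervals, 109 to 139 CPM and 90.9 to 145 CPM. The lower BL library was 18.2-fold above the higher AC library. All BL values above all AC values was an arrangement shared by 16.6% of the 8898 genes tested.

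The log2 difference of BL against AC was 4.69 (SE 0.72), and edgeR's test on the 4 sums gave p = 0.000248 unadjusted and 0.105 adjusted. It missed the threshold, at which 0% of the genes were called. Unadjusted, 483 genes were under 0.05, no adjusted value was below 0.0704, and DESeq2 called 118. By unadjusted p eomes ranked 20th and by log2 difference 85th of the 8898. Under the alternatives the adjusted p ran from 3.05e-06 with DESeq2 to 0.181, and the log2 difference from 4.21 to 5.14. The adjusted p was 0.00931 without AC 2 and 0.0388 without BL 1. The AC level of 4.82 ± 2.15 CPM in cell sums (SD, n = 2) and the cap level of 7.58 ± 1.26 CPM in WI come from different library methods and were not compared.

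The explant labels were checked against marker genes. Of the mesoderm list 7 and 6 of 11 had a read in AC 1 and AC 2, with summed levels of 355 and 506 CPM, and 9 and 10 in BL 1 and BL 2, with 2732 and 3598 CPM. The dorsal organizer gene gsc, which encodes Goosecoid, had 0 reads in both AC libraries and stood at 690 and 2559 CPM in BL. The ectoderm list did not separate the regions by its sum, at 4980 and 11235 CPM in AC and 5675 and 6738 CPM in BL. Of its 10 tested members 8 had a log2 difference below 0, 0 were called by edgeR and 7 had an unadjusted p under 0.05. The epidermal keratin gene krt5.7 stood at 244 and 1778 CPM in AC and at 0 and 6.17 CPM in BL. Its members epcam and cldn6.1 were high in all 4 libraries, and gata2 lay the other way, at 13.8 and 29.0 CPM in AC and at 22.2 and 299 CPM in BL. The endoderm markers had summed levels of 49.4 and 40.8 CPM in AC and 559 and 1719 CPM in BL, with mixer at 0 in all 4 libraries. Of the 5 tested 0 were called by edgeR, and all 5 had an unadjusted p under 0.05. Over all 8898 genes tested, edgeR called 0 and 483 had an unadjusted p under 0.05.

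The pathway list was tested in the same sums. Of 35 genes tested 0 were called by edgeR and 23 had an unadjusted p under 0.05, as had 483 of all 8898 genes tested. DESeq2 called 16 of the list and 118 over all genes. Of the 35, 27 had a log2 difference above 0, against 48.8% of all genes. The median was 4.29, or 4.14 with the 6 genes at 0 in 1 group set to their bound of 3 counts over the group, against −0.02 over all genes. These 6 had 0 reads in AC and passed the filter on low counts only through BL, so that their direction was set by the filter. Both the 27 and the 23 include them. Among T-box genes, vegt stood at 77.9 and 57.1 CPM in AC and at 1473 and 1760 CPM in BL, and t at 3.60 and 0 CPM in AC and at 372 and 669 CPM in BL. Their log2 differences were 4.57 (SE 0.44) and 7.74 (SE 0.90), both with an adjusted p of 0.0704 (edgeR). As with eomes, all BL values lay above all AC values. The ligand genes nodal1 and nodal3.2 had 0 reads in AC, and stood at 46.6 and 376 CPM and at 107 and 129 CPM in BL. Of the 8 receptor and transducer genes tested, 2 had a log2 difference above 0, with a median of −0.36. The receptor gene acvr2a stood at 63.8 and 104 CPM in AC and at 149 and 58.6 CPM in BL (0.32, SE 0.61). The transducer smad2 stood at 251 and 228 CPM in AC and at 187 and 211 CPM in BL (−0.27, SE 0.39). The Smad partner foxh1 stood at 147 and 87.0 CPM in AC and at 50.1 and 40.1 CPM in BL (−1.37, SE 0.55, edgeR adjusted p = 0.876).

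Cell by cell, 30 of the 100 cells had an eomes read. They were 2 of 25 in AC 1 (8%, exact 95% binomial interval 0.984% to 26.03%) and 3 of 25 in AC 2 (12%, 2.55% to 31.2%). In BL 1 there were 15 of 25 (60%, 38.7% to 78.9%) and in BL 2 there were 10 of 25 (40%, 21.1% to 61.3%). The interval of BL 1 overlapped neither AC interval, and that of BL 2 overlapped both. These intervals cover the draw of cells within a library and not the spread between libraries. With 2 libraries per region no exact test over libraries can reach 0.05, and none was made. No 2 cells had identical counts.

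The shares were set beside depth. The median cell held 60215 reads in genes in AC and 34965 in BL, so that the region with more eomes was the less deeply sequenced. Cells under 10000 reads were 6 of 50 in AC and 9 of 50 in BL. Among the deeper cells eomes was read in 5 of 44 AC cells (11.4%) and 24 of 41 BL cells (58.5%). Thinned to 10000 reads in genes each, 5.28% of those AC cells and 36.1% of those BL cells would be expected to keep an eomes read. With 5 reads required, 1 of 50 AC cells (2%) and 13 of 50 BL cells (26%) counted.

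Within BL the level varied widely between cells. The highest, in BL 1, held 56 eomes reads among 43216, or 1296 CPM, and the highest in BL 2 held 26 among 43205, or 602 CPM. The lowest positive cells held 15.04 and 13.8 CPM. The median positive cell was at 77.6 CPM in BL 1 and 183 CPM in BL 2. Above 200 CPM there were 5 cells in each BL library and 0 in either AC library. The 3 cells with most reads carried 68.2% of the eomes reads of BL 1 and 68.0% of those of BL 2. The 5 positive AC cells held 1 to 8 eomes reads each, at 23.3 to 172 CPM, within the range of positive BL cells.

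**Figure D4:**
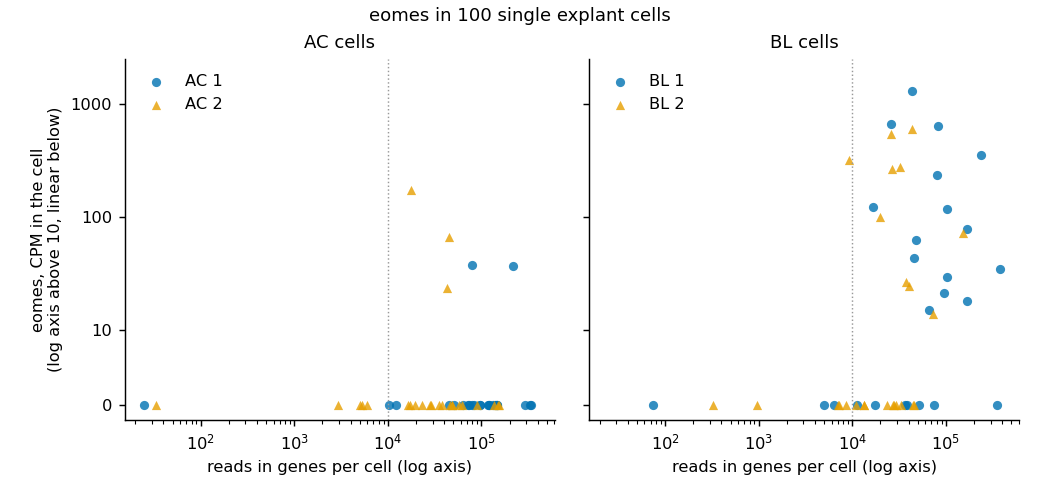
Level of eomes in each of the 100 cells in CPM of that cell (vertical axis, log above 10 and linear below) against its reads in genes (horizontal log axis), for AC on the left and BL on the right, with replicate 1 as circles and replicate 2 as triangles; the dotted line marks 10000 reads. Cells above 200 CPM are found in the BL panel, 5 in each library, and 45 of the 50 AC cells lie at 0.

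BL cells with and without an eomes read were compared for the genes of the list, as a description. In cells of at least 10000 reads, those with eomes were the deeper, with a median of 57494 reads in genes in 24 cells against 29534 in 17. All 41 had a vegt read. A t read was found in 20 of the 24 and in 13 of the 17, a gsc read in 21 and in 16, a mix1 read in 22 and in 12, and a sox17a read in 17 and in 7. These cells came unevenly from the libraries, with 15 and 7 in BL 1 and 9 and 10 in BL 2. In BL 1 the cells with a read were 12 and 5 for t, 12 and 6 for gsc, 13 and 3 for mix1, and 10 and 0 for sox17a. In BL 2 they were 8 and 8, 9 and 10, 9 and 9, and 7 and 7. Of 40 list genes read in at least 5 of these cells, 32 (80.0%) were found in a larger share of the cells with eomes, as were 84.4% of 7861 genes in all. The list thus followed the share set by all genes. Depth and library, which both differed between the cells with and without eomes, were not removed.

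The genes whose pattern was most like that of eomes were sought over the 12 cap libraries without Eomes mRNA, among 8147 genes with a symbol and a mean log2 CPM of at least 2. By Pearson's correlation of log2 CPM the 5 highest were lins-like (0.893), c3orf58 (0.884), map3k3 (0.884), epha4 (0.881) and prr18 (0.879). The libraries share depth, file-number run and injected group, and 4 of the 5 genes, all but epha4, were higher in each of the 3 libraries of the third run than in any of the other 9. Over the 9 libraries of the other runs the correlations were 0.735, 0.648, 0.769, 0.784 and 0.764. The choice of genes moved with the measure, since Spearman's correlation kept 2 of the 5 and the correlation over group means kept 2.

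Of these 5, epha4 encodes an Eph receptor. It ran from 15.8 CPM in Irx3 1 to 115 CPM in Otx2 1, the same libraries that were lowest and highest in eomes. The choice of epha4 by correlation over these libraries favours such a match. With eomes injected the picture differed by group, since epha4 stood at 112 and 83.2 CPM in Eomes and at 336 and 269 CPM in Foxb1+Eomes. The Eomes libraries lie in the third run, where epha4 without Eomes mRNA stood at 115 and 64.1 CPM in Otx2. In Irx3+Otx2 2 of that run it stood at 85.6 CPM. Foxb1+Eomes lies in the other runs, so group and run cannot be told apart. In the explant sums it stood at 23.7 and 13.6 CPM in AC and at 301 and 533 CPM in BL (log2 difference 4.44, SE 0.55, edgeR adjusted p = 0.0814). The only other one tested there was c3orf58, at 102 and 61.6 CPM in AC and at 142 and 47.8 CPM in BL (log2 difference 0.23, SE 0.65), which overlapped. Of the T-box and pathway genes, nog (0.797) and vegt (0.783) came nearest to eomes over the 12 libraries, at ranks 54 and 70 of 13775. Over the 9 libraries outside the third run these were 0.468 and 0.694. For t the correlation was 0.02 over the 12 libraries and 0.515 over these 9.

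**Figure D5:**
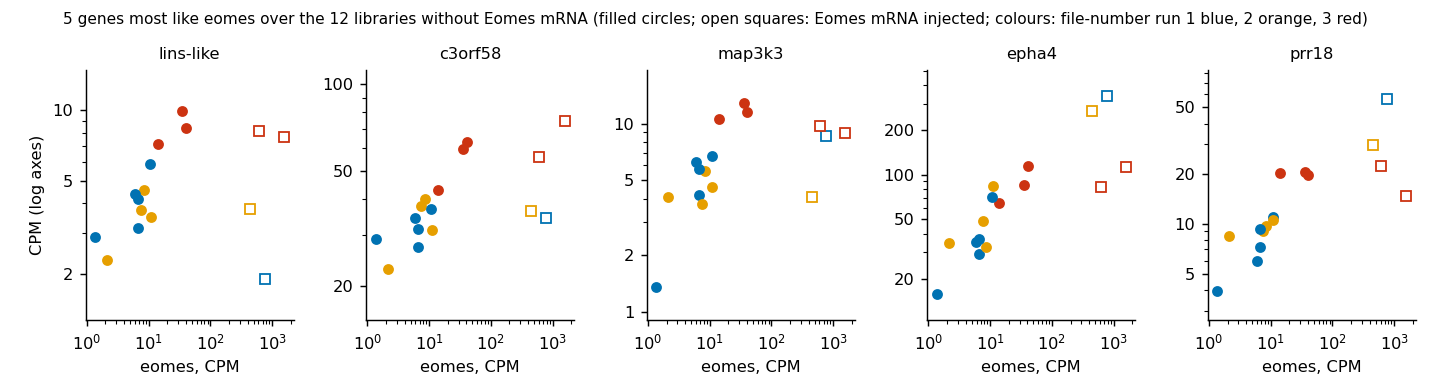
CPM of the 5 genes with the highest correlation with eomes (vertical log axes) against eomes CPM (horizontal log axes) in the 16 cap libraries, with filled circles for the 12 libraries without Eomes mRNA, open squares for the 4 with it and colour for the run of file numbers. The genes were chosen for their correlation over the same 12 libraries, so the rise of the filled circles in each panel follows from that choice. For epha4 they run from 15.8 to 115 CPM.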

How the data were processed

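RNA was measured in 16 bulk cap libraries and 100 single cells; the chromatin samples of the series were not used here. Cap values are estimated counts and TPM per target, deposited by the authors with target length and effective length per the file headers. STAR 2.5.0 is named in the submitters' processing notes; the genome build and the program behind the estimated counts are not given in the sources used here. Cell tables hold whole-number read counts per gene as deposited by the authors, with no molecular identifiers. Reads outside genes or not aligned, kept out of library sizes, were 23.6% to 32.2% and 37.7% to 48.7% of a cell library's total. The labels speak of 200 picked cells and 100 are in the tables. Estimated counts (16.7% not whole, with a tolerance of 0) were rounded and fitted with edgeR 4.0.16 in R 4.3.3 (filterByExpr, TMM, robust quasi-likelihood) over all 16 libraries. Cells were summed per library. Alternatives were DESeq2 1.42.0, other size factors, no filter, fewer libraries, a replicate block, the file-number run as a term, and each library left out. Fits were tested on simulated data. CPM of libraries use TMM factors, CPM of a cell its own reads. Correlations use log2 CPM with a prior count of 2. The members and the gene lists were chosen with earlier results of these data known. Named were eomes, list genes called or abundant in their role, and the 5 genes most like eomes; gsc, krt5.7, epcam, cldn6.1, gata2 and foxi4.2 are markers, and acvr2a, smad2, nodal1, nodal3.2 and nog are list genes chosen after their values were seen.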

Additional observations from a re-analysis of the deposited data

How the results depend on the processing

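Replicate numbers were not taken as pairs in the main fits. Differences between replicates of 2 cap groups correlated at −0.243 to 0.766 over 28 pairs of groups, with 13 over 0.1, and of the explants at 0.198. Some groups thus shared a replicate difference and others did not. In WI, Foxb1, Foxb1+Eomes, Irx3 and Lhx8, replicate 1 lies in the first run of file numbers and replicate 2 in the second. With a replicate block the log2 changes in caps kept their direction and call (Eomes against WI 7.12). In BL against AC it called 80 genes, among them eomes (4.72, edgeR adjusted p 0.0111) and 15 list genes. Without a filter eomes was called in Irx3 (−2.17, adjusted p 0.0119), Otx2 (1.84, 0.00354), Irx3+Otx2 (1.45, 0.0429), BL against AC (4.65, 4.86e-05) and the test over 6 groups (F 12.0, 8.85e-10), and list genes called were 22, 24 and 17 in Eomes, Foxb1+Eomes and BL. With DESeq2 they were 14, 19 and 16, BL against AC was 4.73 (3.05e-06), and the statistic over 6 groups was 30.2 (0.000698). With the file-number run as a term, Eomes against WI was 4.76 (0.992), with 0 list genes and 0 of all genes called. Under that term Otx2 (−0.57), Irx3+Otx2 (−0.19) and Foxb1+Eomes against Eomes (1.55) changed sign. For the third run the term rests on Irx3+Otx2 1 against Irx3+Otx2 2 alone. Over all genes, 28, 49 and 0 were called in Eomes, Foxb1+Eomes and BL against AC, and without a filter 1433, 302 and 146, with DESeq2 844, 110 and 118. The cause of these shifts was not tested. Leaving out each replicate in turn gave −0.36 to 0.02 for Foxb1 (0.0154 without WI 2 and 0.00857 without Foxb1 1), 6.32 to 7.65 for Eomes, 5.87 to 6.66 for Foxb1+Eomes, −0.18 to 2.21 for Irx3+Otx2, 4.21 to 5.14 for BL against AC and an F of 4.15 to 14.6. It gave 0 to 2, 0 to 9 and 3 to 21 list genes in Eomes, Foxb1+Eomes and BL against AC, and kept 2 to 5 of the 5 genes like eomes; Spearman's correlation and group means kept 2 each. Requiring 5 reads gave 2% of AC and 26% of BL cells. Over 29 changes of single named genes there were 277 alternative values, of which 162 kept direction and side of the threshold, 58 lost a call, 57 gained one and 0 changed sign. Low counts limit eomes in Irx3 caps, where 10 and 12 counts carry it, and in AC, with 11 and 7 reads.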
